A study of Mus musculus with 18 samples.

Results

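The oocyte transcription factors examined here are 6 genes, Nobox, Figla, Lhx8, Sohlh1, Sohlh2 and Taf4b, whose proteins switch on the genes of the female germ cell. Their members were all probe sets that the array annotation assigns to 1 of these symbols alone, which gave 8 of the 45037 probe sets other than controls, for 6 of 18193 genes. Nobox (1425759_at), Figla (1450369_at), Lhx8 (1427300_at), Sohlh1 (1460015_at) and Sohlh2 (1429817_at) had 1 probe set each, and Taf4b had 3 (1431193_at, 1435302_at and 1435303_at). The samples were 18 cultures of preantral to small antral follicles from ovaries of C57BL/6Ntac mice of 6 to 8 weeks, with 1 Affymetrix Mouse Genome 430 2.0 array per culture. The cultures were given vehicle or recombinant anti-Müllerian hormone (AMH), at 50 ng/mL or at 200 ng/mL, for 12 or 24 h, which makes 6 groups of 3 cultures. All groups, vehicle included, were in medium with 80 IU/L FSH and 10 IU/L LH. The follicles of 7 mice were pooled and each pool was divided over the 3 doses, so replicate numbers 1 to 3 of a time mark 3 pools, and the pools of 24 h and 12 h are different. AMH is a hormone of granulosa cells that acts through the receptor AMHR2 on SMAD1, SMAD5 and SMAD9, and its best known action in the mouse ovary is to restrain follicle growth.

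In mouse, Sohlh1 and Sohlh2 are basic helix-loop-helix proteins of germ cells and early oocytes that act upstream of Nobox, Figla and Lhx8. Figla, a further protein of this class, is required for primordial follicles and activates the zona pellucida genes through the E-box, a CANNTG motif. Nobox and Lhx8 are homeodomain proteins needed for primordial oocytes to enter growth, and Nobox is known to bind TAATTG and to activate Gdf9 and Pou5f1. Taf4b is a subunit of the general transcription factor TFIID that is enriched in gonads, and it is also made by granulosa cells. A follicle holds 1 oocyte among many somatic cells, so in whole follicles less RNA per oocyte and fewer oocytes in a pool cannot be told apart.

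The promoters of Nobox, Figla and Lhx8, whose signals moved together across arrays as described below, are shown with that of Sohlh1, which holds the most E-boxes of those examined. Each is the stretch of 250 bases before the gene's start, from RefSeq on GRCm38.p6, written 5′ to 3′ on the gene's strand with CANNTG in capitals. Nobox lies on the minus strand (chr6:43309555-43309804), as do Lhx8 (chr3:154330561-154330810) and Sohlh1 (chr2:25847249-25847498). Figla lies on the plus strand (chr6:86016941-86017190). Promoters were taken for 5 of the 6 genes, and that of Taf4b was not used here.
Nobox: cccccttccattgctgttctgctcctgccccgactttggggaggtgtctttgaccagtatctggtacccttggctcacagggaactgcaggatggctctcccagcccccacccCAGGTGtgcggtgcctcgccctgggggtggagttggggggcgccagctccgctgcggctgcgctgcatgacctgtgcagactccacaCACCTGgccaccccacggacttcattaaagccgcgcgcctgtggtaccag
Figla: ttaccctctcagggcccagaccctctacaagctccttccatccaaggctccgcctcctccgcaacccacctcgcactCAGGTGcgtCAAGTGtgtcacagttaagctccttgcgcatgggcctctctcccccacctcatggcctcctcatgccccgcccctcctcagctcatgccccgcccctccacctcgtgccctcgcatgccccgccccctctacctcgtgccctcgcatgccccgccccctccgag
Lhx8: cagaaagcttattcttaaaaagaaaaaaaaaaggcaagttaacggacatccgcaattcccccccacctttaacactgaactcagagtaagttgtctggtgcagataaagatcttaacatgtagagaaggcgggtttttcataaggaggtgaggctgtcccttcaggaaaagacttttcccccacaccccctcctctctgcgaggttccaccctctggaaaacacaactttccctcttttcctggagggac
Sohlh1: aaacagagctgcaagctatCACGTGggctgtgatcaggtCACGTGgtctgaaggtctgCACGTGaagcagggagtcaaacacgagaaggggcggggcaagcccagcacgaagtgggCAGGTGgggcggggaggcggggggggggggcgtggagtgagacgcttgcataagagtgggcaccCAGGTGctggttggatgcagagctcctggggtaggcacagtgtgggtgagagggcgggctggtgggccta

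CANNTG occurs 2 times before Nobox, with its first base at positions -137 and -50 from the start, and both matches read CAGGTG on 1 of the strands. Figla has 2 matches, at -173 and -164. Sohlh1 has 5 matches, and those at -231, -211 and -192 read CACGTG. Sohlh2 (chr3:55181794-55182043, plus strand) has 1 match at -241, and none lies in the Lhx8 window. TAATTG was found in none of the 5 windows on either strand. Over 32851 RefSeq windows of this length, 66.2% hold CANNTG at least once and 12.2% at least 3 times. CACGTG and CAGGTG are forms of CANNTG and occur in 6.02% and 17.2% of the windows, and 0.0609% hold 3 or more CACGTG. The motif TAATTG occurs in 7.17%. These matches describe letters only and say nothing of binding.

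Signals are MAS5 intensities on a linear scale, as deposited, and differences are given in log2 of the signal plus 16, which understates the change of dim probe sets. The array of AMH 50 ng/mL at 12 h in replicate 3 is given apart and was left out of the tests. Its log2 signals correlated with the other 17 arrays at 0.604 to 0.624 across probe sets, against 0.904 to 0.992 among those 17, and its hybridisation controls averaged 32128, against 1582 to 3879. The AMH 200 ng/mL array of that pool was kept although its poly-A spike controls were at 5451, against at most 1606 on the arrays of other pools. By mean log2 signal, the 3 arrays of this pool also had the lowest oocyte marker levels of all 18, whereas by summed signal AMH 50 at 24 h in replicate 3 (897) was below AMH 200 of this pool (960). The mean log2 signal of 12 fixed oocyte markers was 5.24 with AMH 200 and 5.29 with vehicle there, against 5.98 to 9.46 on the 15 arrays of the other pools. No marker was at 0, and the lowest marker signal was 0.442. The follicle label was thus met by oocyte markers in 5 pools and only weakly in replicate 3 of 12 h. The 12 h differences of Nobox and Lhx8 from vehicle are therefore given with and without that pool. The fitted values and medians of the gene and marker lists at 12 h come from the fit that holds it.

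Nobox and Lhx8 varied more between pools than any other member. Over the 17 arrays, Nobox had a lowest signal of 1.29, a median of 88.1 and a highest of 321. At 24 h, Nobox signals in replicates 1, 2 and 3 were 23.3, 222 and 94.7 with vehicle, 26.0, 88.1 and 18.0 with AMH 50, and 40.3, 198 and 82.8 with AMH 200. At 12 h they were 167, 321 and 5.84 with vehicle, 53.5 and 179 with AMH 50 in replicates 1 and 2, and 210, 255 and 1.29 with AMH 200. Replicate 2 was the highest at every dose and time, replicate 3 of 12 h held the lowest values, and the groups of each time overlapped. The aberrant array had a Nobox signal of 6.97, close to the other arrays of its pool.

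Lhx8 followed the same order of pools. At 24 h its signals in replicates 1, 2 and 3 were 36.4, 135 and 71.4 with vehicle, 15.3, 72.7 and 21.1 with AMH 50, and 19.7, 117 and 86.9 with AMH 200. At 12 h they were 91.2, 150 and 2.19 with vehicle, 35.8 and 96.3 with AMH 50, and 137, 154 and 0.564 with AMH 200, with 4.66 on the aberrant array. Here too the groups of each time overlapped, and the spread lay between pools. The SD between pool means was 1.39 log2 units for Nobox and 1.16 for Lhx8, above the 90th percentile of 0.605 over the 22518 probe sets tested, and the SD within pools was 0.66 and 0.55.

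Figla, Sohlh1 and Sohlh2 were dim, and none of the 3 passed the filter, which kept the brighter part of the array, above the 50th percentile of the mean log2 signal. Figla had a lowest, median and highest signal of 5.68, 20.9 and 51.5 over the 17 arrays and was below the median signal of its array on 12. Sohlh1 ranged over 10.4, 17.6 and 28.7 and was below that median on 15 arrays. Sohlh2 ranged over 1.91, 13.1 and 22.5 and was below it on all 17. Of these, Figla varied most between pools, although signals of different pools overlapped. At 24 h, Figla signals were 11.4, 29.7 and 20.2 with vehicle, 13.5, 28.4 and 7.89 with AMH 50, and 6.82, 34.7 and 15.8 with AMH 200. At 12 h they were 27.5, 34.4 and 5.68 with vehicle, 20.9 and 28.9 with AMH 50, and 33.9, 51.5 and 6.07 with AMH 200. The SD between pool means was 0.51 log2 units for Figla, against 0.11 for Sohlh1 and 0.22 for Sohlh2, whose SD within pools was larger (0.25 and 0.27).

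The 3 Taf4b probe sets were above the array median on all 17 arrays and varied less. The lowest, median and highest signals were 42.6, 144 and 270 for 1431193_at, 37.1, 63.1 and 80.6 for 1435302_at, and 26.9, 54.6 and 78.1 for 1435303_at. The lowest value of 1431193_at came from AMH 200 at 12 h in replicate 3, and the next lowest array had 95.6. That AMH 200 array, whose poly-A controls were raised, also held the highest value of 1435302_at (80.6). The SD between pool means was 0.49, 0.09 and 0.26 log2 units for these probe sets, against a median of 0.278 over all probe sets tested. The probe sets differed among themselves. Pearson's r over the 17 arrays was 0.56 between 1431193_at and 1435303_at, and 0.16 between 1435302_at and each of the others. Spearman's rho was 0.45 between 1431193_at and 1435303_at. With 1435302_at it was 0.46 for 1431193_at and 0.27 for 1435303_at, so the ranks did not set 1435302_at apart from 1431193_at.

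**Figure D1:**
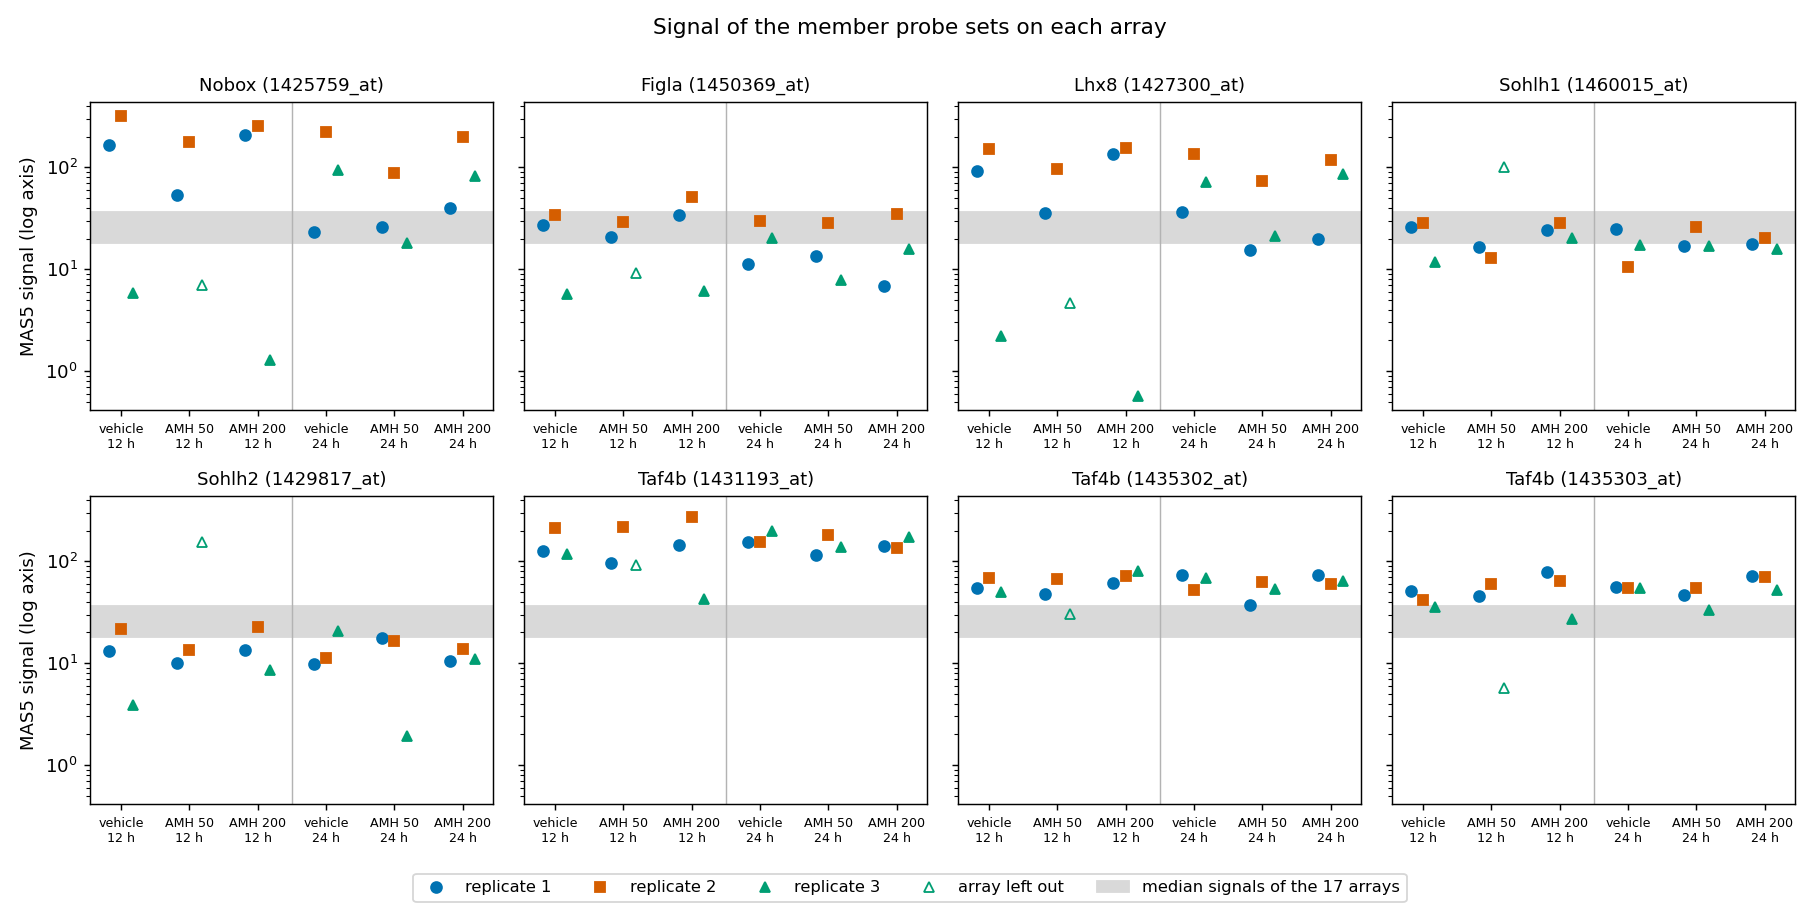
MAS5 signal (log axis) of each member probe set on each array, by dose and time, with a symbol per replicate number, an open triangle for the array left out, and a grey band for the range of the 17 array medians (18.0 to 36.5). Nobox and Lhx8 spread over the whole axis with replicate 3 of 12 h at the bottom, the Taf4b probe sets stay above the band on nearly every array, and Sohlh1 and Sohlh2 lie in or below it except on the array left out.

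Across arrays, Nobox, Lhx8 and Figla followed the oocyte markers. These were the 12 tested members of a list of 13 (Gdf9, Bmp15, Zp1, Zp2, Zp3, Nlrp5, Ooep, Padi6, H1f8, Zar1, Mos, Dazl and Ddx4). Pearson's r with their mean log2 signal over 17 arrays was 0.989 for Nobox (Spearman's rho 0.983), 0.980 for Lhx8 (0.966) and 0.942 for Figla (0.931). The values within pools, taken on deviations from each pool's mean, were 0.939, 0.928 and 0.697. Without the 2 arrays of replicate 3 at 12 h, over 15 arrays, they were 0.983, 0.966 and 0.923. The slope was 0.94 log2 units of Nobox and 0.77 of Lhx8 per log2 unit of the markers, and 0.33 of Figla.

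The other members followed the markers less closely. The correlation over 17 arrays was 0.70 for Sohlh2 (rho 0.70) and 0.33 for Sohlh1 (rho 0.32). For Taf4b it was 0.69 (1431193_at, rho 0.68), 0.15 (1435302_at, rho 0.07) and 0.64 (1435303_at, rho 0.51). Within pools r was 0.627 for Sohlh2, 0.142 for Sohlh1, and 0.396, 0.347 and 0.625 for the Taf4b probe sets in this order. Sohlh2 and Taf4b 1435303_at thus came near the within-pool value of Figla. Over the 15 arrays without replicate 3 of 12 h, r was 0.61 for Sohlh2, 0.24 for Sohlh1, and 0.56, 0.32 and 0.38 for Taf4b. Among members, the closest pair over the 17 arrays was Nobox and Lhx8 (r 0.971, rho 0.958, and 0.886 within pools). Nobox and Figla (r 0.930, rho 0.944, and 0.615 within pools) and Lhx8 and Figla (r 0.914, rho 0.936, and 0.701 within pools) followed. Within pools, Figla and the dim Sohlh2 (0.752) were closer than Figla was to Nobox or Lhx8. All these are descriptions over arrays that share pools of follicles and doses.

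**Figure D2:**
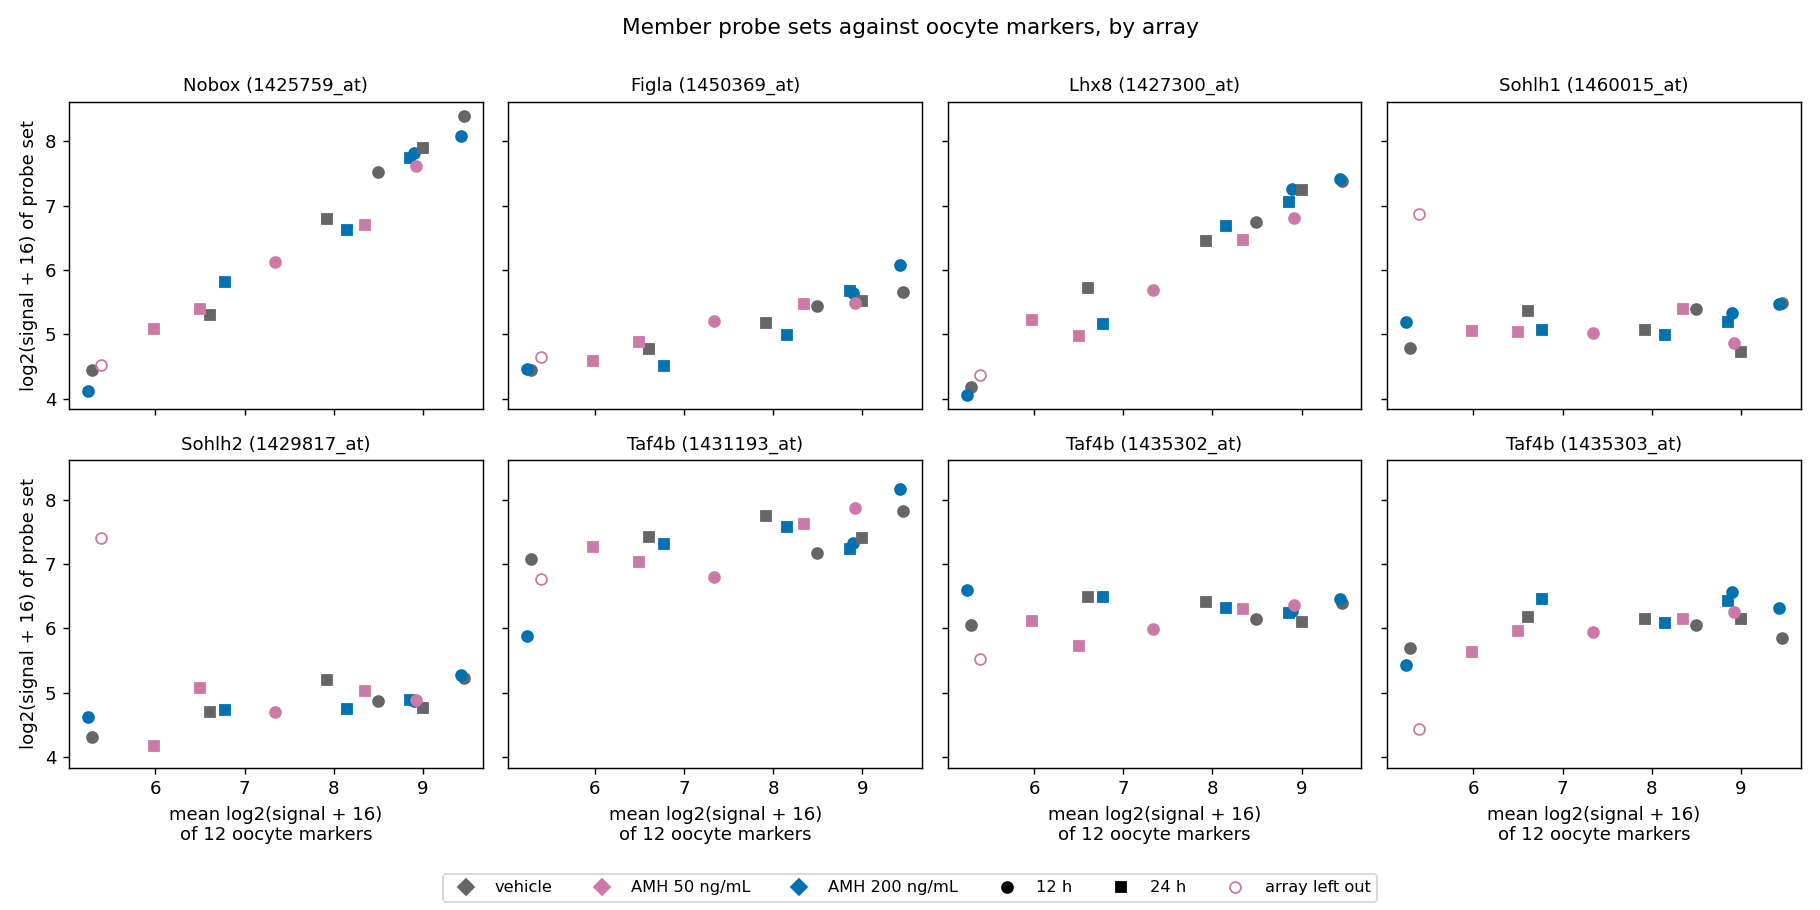
Log2(signal + 16) of each member probe set (vertical axis) against the mean log2(signal + 16) of 12 oocyte markers (horizontal axis), 1 point per array, coloured by dose and shaped by time, with the array left out drawn open. Nobox and Lhx8 lie along a rising line through all doses (r 0.989 and 0.980 over 17 arrays), Figla along a flatter one, and Sohlh1 and Taf4b 1435302_at are nearly level.

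Likeness to the tested members was Pearson's r over 17 arrays with the mean of centred log2 signals of Nobox, Lhx8 and the brightest Taf4b probe set, among 11210 other genes. Wee2, an oocyte kinase that keeps meiosis arrested, came first (0.989), then Dppa3, a maternal factor that protects DNA methylation in the zygote (0.987). Ezhip, Oas1c, Khdc1a, Rspo2 and Tdrd1 followed, and Zp3, a zona pellucida protein, was the eighth (0.983). On deviations from pool means, Ezhip was first (0.989), followed by Ccno, Oas1c, Arhgap20os, Dppa3 (0.964), Zfp57, Smim1 and Klf17. Nobox alone was most like Miox (0.988), Zp1 (0.985) and Klf17 (0.983). Lhx8 was most like Zp1 (0.984), Rspo2, an oocyte-made enhancer of WNT signalling (0.984), and Dppa3 (0.983). Taf4b 1431193_at was most like Dis3l (0.932), Ercc6l2 (0.923) and Fcsk (0.921). On deviations from pool means its highest were other genes, Ranbp3 (0.938), Eno3 (0.926) and Eif4enif1 (0.925). The other Taf4b probe sets were not ranked.

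The first comparison set AMH 50 ng/mL against vehicle at 24 h. Nobox and Lhx8 had the largest differences among the members, but no probe set passed the test. Of 22518 probe sets, 0% passed an adjusted p of 0.05 by limma, and an unadjusted p under 0.05 was seen for 605. The within-pool log2 differences of Nobox, AMH 50 minus vehicle, were 0.10, -1.20 and -1.70 in replicates 1, 2 and 3, so Nobox was lower in 2 of 3 pools and about level in the pool where it was already dim. The fit gave -0.93 (SE 0.31, 95% interval -1.60 to -0.27, adjusted p = 0.999978). It became -0.55 without replicate 3 and -1.45 without replicate 1. For Lhx8 the pool differences were -0.74, -0.77 and -1.23, and the fit gave -0.91 (SE 0.25, interval -1.47 to -0.36, adjusted p = 0.999978). Lhx8 was thus lower in 3 of 3 pools, a pattern that 12.2% of the probe sets tested showed.

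The 3 Taf4b probe sets had smaller differences at this dose and time. The fitted values were -0.21, -0.28 and -0.25 for 1431193_at, 1435302_at and 1435303_at, with SE between 0.21 and 0.27 and intervals that include 0. Only 1435303_at was lower in all 3 pools (-0.21, -0.01 and -0.52). All 5 tested member probe sets had a negative fitted value, as did 51.5% of all probe sets tested, and the median over the members was -0.28, against -0.01 over all. For the dim members, the pool differences were 0.11, -0.04 and -0.60 for Figla, -0.32, 0.66 and -0.01 for Sohlh1, and 0.37, 0.26 and -1.03 for Sohlh2.

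The median difference of the oocyte markers per pool was -0.05, -0.68 and -1.78 in replicates 1, 2 and 3, the order seen for Nobox. Lhx8 departed from it in replicate 1, where it had -0.74 while the markers were about level and the granulosa markers had a median of -0.61. With AMH 200 in that pool, against the same vehicle array, Lhx8 had -0.56, the oocyte markers 0.11 and the granulosa markers 0.25. The summed signal of the oocyte markers (13 genes) was 897 to 4613 with AMH 50 and 1422 to 7594 with vehicle. The granulosa markers (9 genes) summed to 6184 to 9739 with AMH 50 and 7524 to 8376 with vehicle. The part of the oocyte content of the cultures in the lower Nobox and Lhx8 signals was not tested. Median centring of the arrays moves every AMH 50 difference at 24 h by 0.11 log2 units and keeps the sign of all 5 members. Weighting arrays by their quality in the fit made Nobox -1.33 (adjusted p = 0.00440) and Lhx8 -1.28 (adjusted p = 0.00234), whereas the other alternatives gave adjusted p of 0.591 to 0.999995 for Nobox and 0.446 to 0.999995 for Lhx8. Those weights came from an estimate that stopped before it had converged.

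AMH 200 ng/mL against vehicle at 24 h gave values near 0 for most members. Of the probe sets tested, 0% passed by limma, with 379 at an unadjusted p under 0.05. The Nobox pool differences were 0.52, -0.16 and -0.16, with a fitted 0.07 (SE 0.31, interval -0.60 to 0.73). Those of Lhx8 were -0.56, -0.18 and 0.24, with a fitted -0.17 (SE 0.25, interval -0.72 to 0.39). Taf4b had fitted values of -0.15, 0.02 and 0.16, and 1431193_at was lower in 3 of 3 pools, as were 11.9% of the probe sets tested. Without replicate 1, Nobox turned to -0.16 and Lhx8 to 0.03.

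The doses were also set against each other, AMH 200 over AMH 50. At 24 h Nobox was higher with 200 than with 50 ng/mL by 1.00 (SE 0.31, interval 0.33 to 1.67) and Lhx8 by 0.75 (SE 0.25, interval 0.20 to 1.30), with an adjusted p of 0.998726 for both. Taf4b had 0.06, 0.29 and 0.41. At 12 h the values were 1.03 for Nobox (SE 0.36, adjusted p = 0.784709) and 1.01 for Lhx8 (SE 0.30, adjusted p = 0.683695), and 0.16, 0.27 and 0.21 for Taf4b. At each time 0% of the probe sets passed by limma, with 936 at 24 h and 1264 at 12 h at an unadjusted p under 0.05. Without replicate 1 of 12 h, the values at 12 h were 0.47 for Nobox and 0.55 for Lhx8. These differences share the AMH 50 arrays with the comparisons against vehicle. Without replicate 3 of 24 h, the Lhx8 value at 24 h was 0.39.

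**Figure D3:**
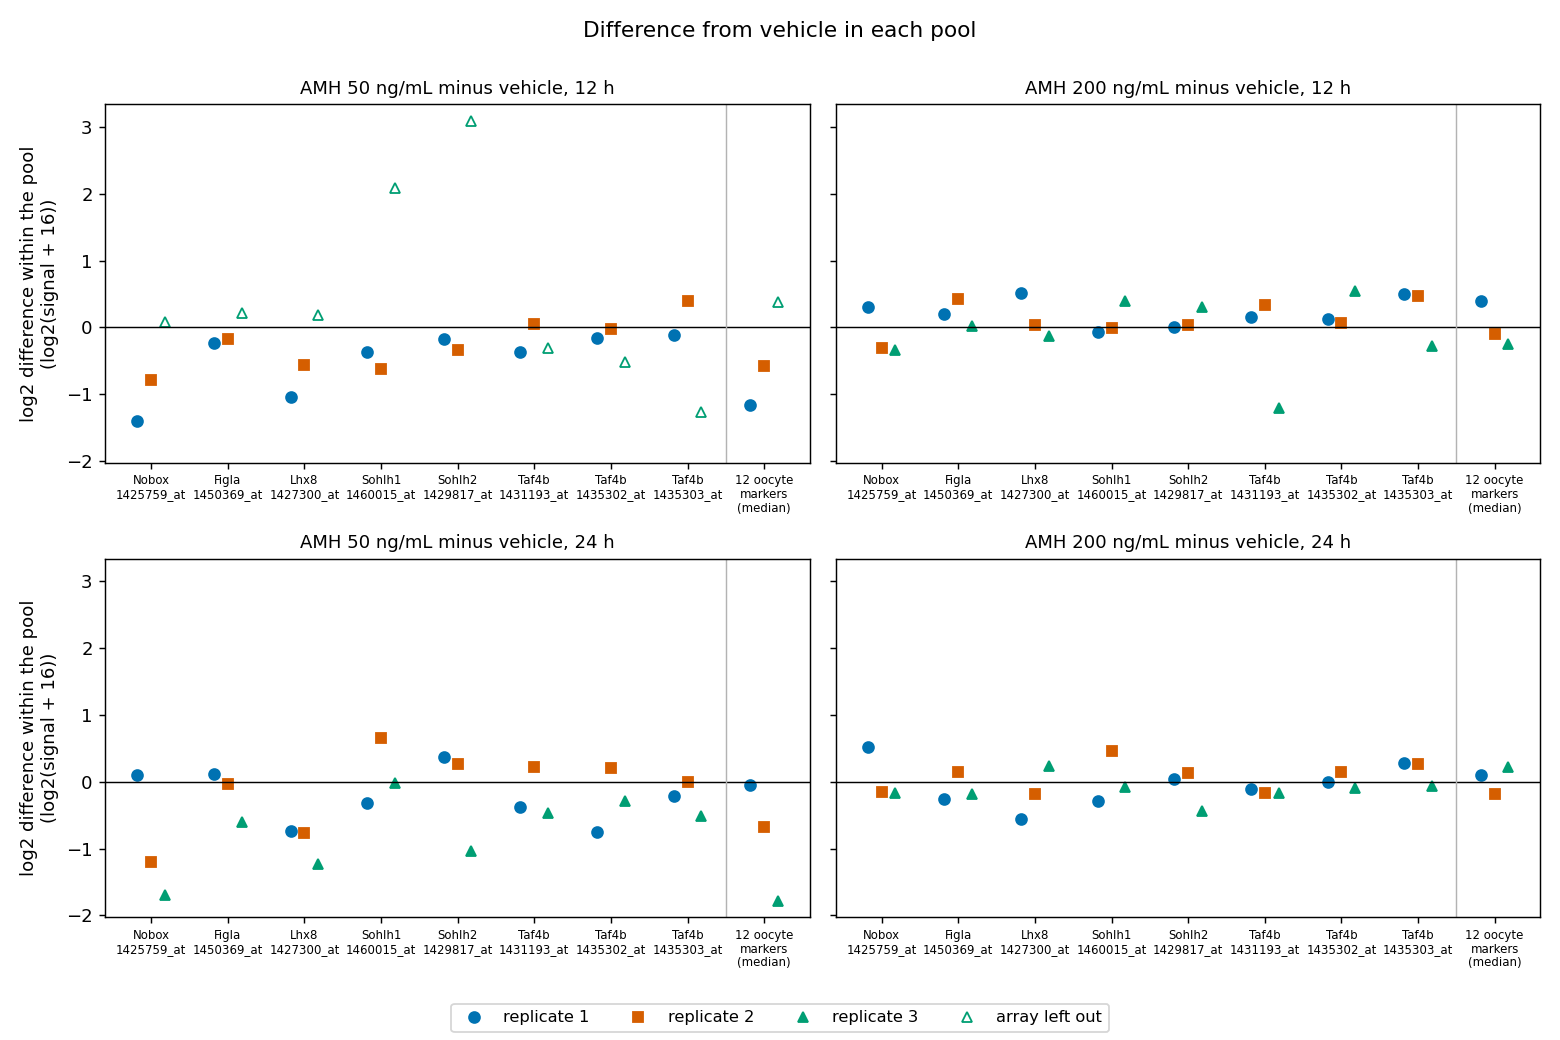
Within-pool log2 differences from vehicle (vertical axis) of the 8 member probe sets and, at the right of each panel, the median of 12 oocyte markers, for both doses at 12 and 24 h, with a symbol per replicate number and an open triangle for the array left out. With AMH 50, Nobox and Lhx8, measured on the same pools, each lie below 0 in at least 4 of 5 pools, as do 21.6% of all probe sets tested. With AMH 200 the filled points of all members but Taf4b 1431193_at in replicate 3 of 12 h stay within 0.6 of 0.

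AMH 50 ng/mL against vehicle at 12 h rested on 2 pools, since the third array was the aberrant one. Nobox and Lhx8 were lower in both pools. The pool differences were -1.40 and -0.79 for Nobox and -1.05 and -0.57 for Lhx8, and those from the aberrant array were 0.07 and 0.18. The fit gave -1.15 for Nobox (SE 0.36, interval -1.93 to -0.37) and -0.88 for Lhx8 (SE 0.30, interval -1.52 to -0.23), with an adjusted p of 0.867045 for both. By limma 0% of the probe sets passed, and an unadjusted p under 0.05 was seen for 1282. Without replicate 3 of 12 h the values were -1.09 and -0.81. Being lower in both pools was common, at 28.6% of the probe sets tested, and besides Nobox and Lhx8 it held for Taf4b 1435302_at.

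The fitted values of Taf4b at this dose and time were -0.40, -0.02 and 0.02. Figla was lower by 0.24 and 0.17 in the pools, Sohlh1 by 0.37 and 0.63, and Sohlh2 by 0.17 and 0.34, all 3 below the filter. The oocyte markers had median differences of -1.16 and -0.58 in replicates 1 and 2. Their summed signal was 2343 to 7126 with AMH 50 and 471 to 10406 with vehicle, where the low end was replicate 3. Whether oocyte content accounts for the lower signals was not tested. Over both times, 4 of the 5 tested member probe sets (Nobox, Lhx8, and Taf4b 1435302_at and 1435303_at) were lower with AMH 50 in at least 4 of 5 pools, as were 21.6% of all tested.

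AMH 200 ng/mL against vehicle at 12 h gave pool differences of 0.30, -0.32 and -0.34 for Nobox and 0.51, 0.03 and -0.14 for Lhx8. The fitted values were -0.12 (SE 0.31, interval -0.78 to 0.55) and 0.13 (SE 0.25, interval -0.42 to 0.69). Without replicate 3 they were -0.01 and 0.27. None of the tested members was lower in 3 of 3 pools, against 14.4% of the probe sets tested. Taf4b 1431193_at had differences of 0.16, 0.34 and -1.21, and its fitted value of -0.24 became 0.25 without replicate 3, the pool whose AMH 200 array had raised poly-A controls. The other Taf4b probe sets had 0.25 and 0.23. At this dose and time 0% of the probe sets passed by limma, with 2563 at an unadjusted p under 0.05. Leaving out replicate 2 of 12 h brought the number that passed to 225, none of them a member.

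The AMH difference was also compared between the times, as the 24 h effect minus the 12 h effect. With AMH 50 it was 0.21 for Nobox (SE 0.47, interval -0.81 to 1.24) and -0.04 for Lhx8 (SE 0.39, interval -0.89 to 0.81). With AMH 200 it was 0.18 for Nobox (SE 0.44) and -0.30 for Lhx8 (SE 0.36). No member passed, and 0% of the probe sets did by limma, with 729 and 1618 at an unadjusted p under 0.05. The AMH 200 difference averaged over both times was -0.03 for Nobox (SE 0.22, interval -0.50 to 0.45) and -0.02 for Lhx8 (SE 0.18, interval -0.41 to 0.37), where 0% passed and 764 probe sets had an unadjusted p under 0.05.

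**Figure D4:**
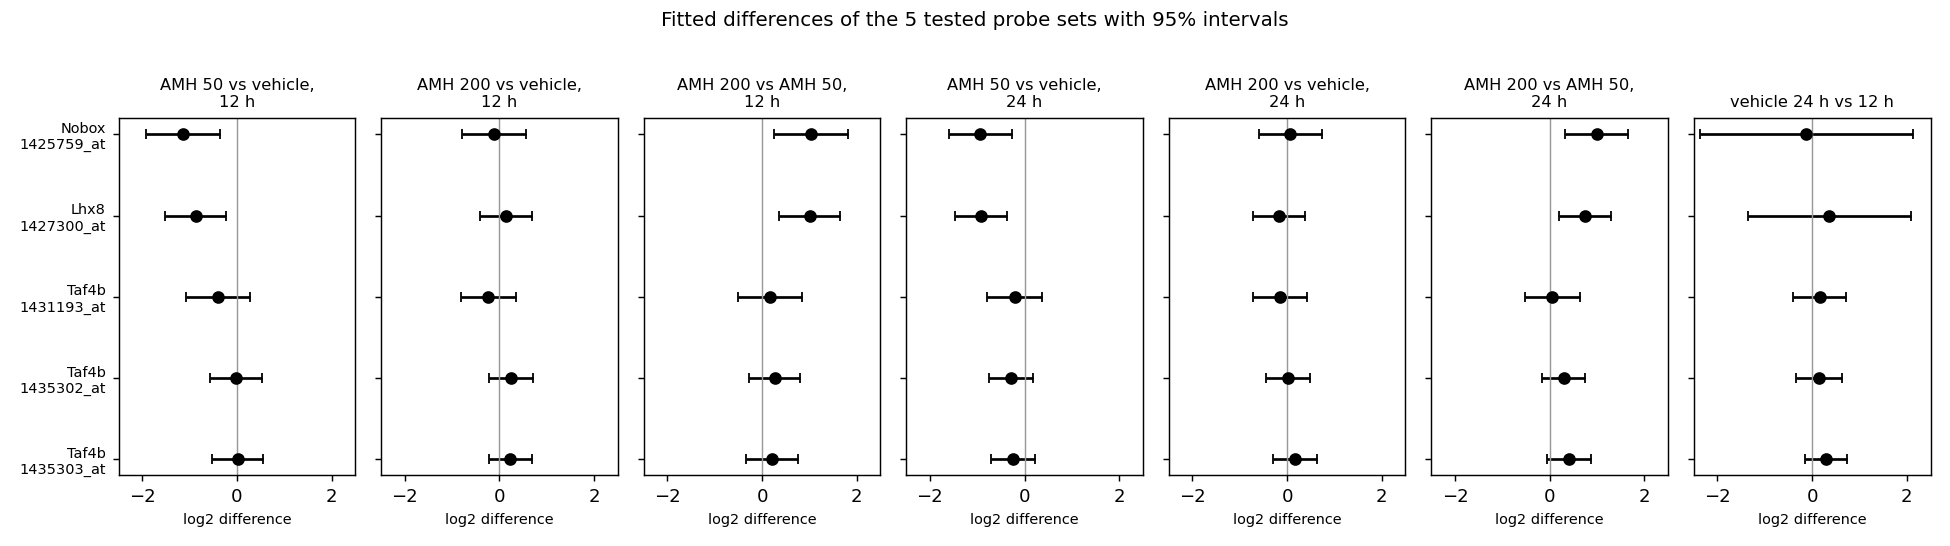
Fitted log2 differences (points) and 95% intervals (bars) of the 5 tested member probe sets in 7 comparisons, each named over its reference above the panel. The intervals of Nobox and Lhx8 lie below 0 for AMH 50 against vehicle and above 0 for AMH 200 against AMH 50 at both times before adjustment over all probe sets, and they span several log2 units in the comparison of vehicle cultures between times.

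The last comparison set vehicle cultures at 24 h against vehicle cultures at 12 h, on 6 arrays of different pools. Of the 22518 probe sets, 1.09% passed by limma (246, of which 169 were higher at 24 h), and no member did. The fitted difference was -0.13 for Nobox (SE 0.99, interval -2.37 to 2.12) and 0.36 for Lhx8 (SE 0.76, interval -1.36 to 2.09). Without replicate 3 of 12 h they were -1.29 and -0.59. Taf4b had 0.16, 0.14 and 0.29 (SE 0.20 to 0.24). The count of passing probe sets was 461 without vehicle replicate 3 of 12 h, 35 without replicate 2 of 12 h, and 0 or 1 without a replicate of 24 h.

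Placed by mean log2 signal over 17 arrays, the groups of Nobox ran from AMH 50 at 24 h (5.73 ± 0.86, SD, n = 3) to AMH 50 at 12 h (6.86 ± 1.05, n = 2). The group of AMH 50 at 12 h lacks the dim pool, replicate 3, that the other groups of 12 h hold, and in the 2 pools it shares with vehicle its Nobox value was lower by 1.40 and 0.79. Between the ends lay vehicle at 24 h (6.66 ± 1.31), AMH 200 at 12 h (6.67 ± 2.22), AMH 200 at 24 h (6.73 ± 0.97) and vehicle at 12 h (6.79 ± 2.07). Neighbours in this order differed by less than the larger SD of the pair, but the SD is mostly the spread between pools that the doses share. The order is thus no comparison of doses, for which the differences within pools are given above. For Lhx8 the lowest group was also AMH 50 at 24 h (5.55 ± 0.81) and the highest was vehicle at 24 h (6.47 ± 0.76). For Taf4b 1431193_at the group means lay between 7.12 ± 1.16 (AMH 200 at 12 h) and 7.52 ± 0.19 (vehicle at 24 h). Those of Figla lay between 4.98 ± 0.45 (AMH 50 at 24 h) and 5.39 ± 0.83 (AMH 200 at 12 h).

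Genes reported downstream of these factors in mouse, and other zona pellucida and oocyte-secreted genes, were followed as a list of 11 (Zp1, Zp2, Zp3, Gdf9, Bmp15, Oosp1, Pou5f1, Npm2, Dppa3, Nlrp14 and Rfpl4), of which 9 were tested. With AMH 50 at 24 h, all 9 had negative fitted values, with a median of -1.0, against -0.01 over all probe sets, and none passed the test. The largest were Nlrp14 (-1.60, SE 0.44), the zona genes Zp3 (-1.58, SE 0.44) and Zp2 (-1.36, SE 0.54), and Gdf9, the oocyte growth factor (-1.01, SE 0.29). At 12 h, 8 of 9 were negative with a median of -0.86, and 0 passed. Zp3 (-1.15), Nlrp14 (-1.06), Zp2 (-1.02) and Zp1 (-1.0) were furthest from 0. With AMH 200 the medians were 0.03 at 24 h and 0.09 at 12 h. The values ran from -0.11 to 0.25 at 24 h and from -0.36 to 1.60 at 12 h, and 0 passed. The highest was Rfpl4 at 12 h (1.60, SE 0.65). In the single pools the medians with AMH 50 were -0.44, -0.80 and -1.57 at 24 h and -1.01 and -0.54 at 12 h. This list shares Zp1, Zp2, Zp3, Gdf9 and Bmp15 with the markers above.

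Other oocyte genes behaved alike in direction. The list of 12 was Nlrp5, Ooep, Padi6, H1f8, Zar1, Mos, Kit, Khdc3, Tle6, Ddx4, Dazl and Gpr3, of which 11 were tested. All of them but Kit, Khdc3, Tle6 and Gpr3 are also among the oocyte markers above, so the list is no separate set. With AMH 50 all 11 had negative values at both times, with medians of -0.54 at 24 h and -0.80 at 12 h and 0 passing. At 24 h the furthest were Nlrp5, a subcortical maternal complex protein (-1.13), the oocyte linker histone H1f8 (-1.01), Padi6 (-0.82) and the meiotic kinase Mos (-0.68). At 12 h they were Padi6 (-1.16), Tle6 (-1.15), Zar1 (-1.14) and Nlrp5 (-0.96). With AMH 200 the medians were -0.01 at 24 h and 0.08 at 12 h, with values from -0.20 to 0.39 and from -0.77 to 0.58.

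Partners and relatives of the factors had values on both sides of 0. This list of 26 held E proteins, the dimer partners of helix-loop-helix factors, LIM cofactors and LIM-homeodomain relatives, TFIID subunits, and Foxo and other factors, and 24 were tested. With AMH 50 at 24 h, 10 were negative and 14 positive, with a median of 0.03. The furthest were Lhx9 (-0.56), Tbx2 (0.43), the germ cell RNA-binding protein Ybx2 (-0.40) and Taf5 (-0.38). At 12 h, 19 of 24 were negative with a median of -0.13, against 57.9% of all probe sets. Ybx2 (-0.97), Ldb2 (-0.70), the E protein Tcf4 (-0.59) and Lhx9 (0.51) were furthest from 0. The factors Stat3, Dynll1 and Sub1 belong to a set reported to give oocyte-like growth in mouse stem cells together with Nobox, Figla and Lhx8. Their values with AMH 50 at 24 h were 0.04 to 0.06, and at 12 h -0.21, 0.11 and 0.21. No gene of these lists passed in any AMH comparison.

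Markers of other cells also differed between cultures. With AMH 50 against vehicle at 24 h, all 8 ovarian surface epithelium markers had negative values (median -0.61), as did all 7 tested leukocyte markers (median -0.71), and with AMH 200 the medians were -0.60 and -0.97. The tested granulosa markers had a median of -0.16 with AMH 50 and 0.14 with AMH 200 at 24 h, and the theca and interstitial markers 0.19 and -0.0019. Of 5 tested endothelial markers, 3 were higher with AMH 50 (median 0.05) and 5 with AMH 200 (0.03). At 12 h the epithelial medians were 0.44 with AMH 50 and 0.48 with AMH 200. The pools differed in the summed epithelial signal with AMH 200 and with vehicle. It was 5499 and 4056 in replicate 1, 5100 and 6436 in replicate 2, and 14278 and 5915 in replicate 3. The theca and interstitial markers were negative in 6 of 7 with AMH 50 (median -0.40) and in 2 of 7 with AMH 200 (0.09). Endothelial markers were negative in 4 of 5 with AMH 50 (-0.42), beside the lower Nobox and Lhx8 values, and in 5 of 5 with AMH 200 (-0.57). Granulosa markers were negative in 5 of 9 with AMH 50 (-0.11) and in 7 of 9 with AMH 200 (-0.35), and leukocyte markers in 5 of 7 (-0.18) and 3 of 7 (0.21). None of these passed the test, and their part in the members' values was not tested.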

How the data were processed

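RNA of 18 cultures, amplified from 5 ng, was hybridised to 1 Affymetrix Mouse Genome 430 2.0 array each. The deposited table holds the authors' MAS5 signal intensity per probe set on a linear scale (MAS5 per the submitters' processing notes, version not given in the sources used here), with a 2% trimmed mean of 150.001 on every array, and no column was left unused (0). Titles and source give 12 h for AMH samples whose description gives 24 h, and 12 h was used. The annotation gave 1 symbol to 34945 of 45037 probe sets, several to 932 and none to 9160.

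Values were log2(signal + 16), not normalized again. limma 3.58.1 in R 4.3.3 (lmFit, eBayes with a trend) was run on 22518 probe sets, those brighter than the 50th percentile in mean log2 signal over 17 arrays (7 residual degrees of freedom), with the pool as a block. The 6 vehicle arrays were fitted alone for 24 h against 12 h. Tests were two-sided with Benjamini-Hochberg adjustment and a threshold of 0.05, and the method was tested on simulated data. The labels say that a pool was divided over the doses. Deviations from group means correlated at 0.067 to 0.495 within pools (16 pairs) and at -0.408 to 0.161 between pools (32 pairs). Deviations within a group cancel out, so positive values within pools bring negative ones between pools, and these ranges are not separate checks. The p-values of the dose comparisons measure how differences within pools vary, and those of vehicle 24 h against 12 h the spread between pools. The number of arrays limits the precision.

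Members and lists were chosen with earlier results of these data known. A list's gene is its brightest probe set, and the named genes of a list are the 4 furthest from 0 in a comparison. Likeness was ranked over the 17 arrays, naming 8 genes for the mean of members and 3 for each member. Alternatives changed the arrays, block, pseudocount, normalization, filter, trend and weights, and left out each replicate. Plots were made in python 3.11.15 (matplotlib 3.10.9).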

Additional observations from a re-analysis of the deposited data

Results flagged for a closer look

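On the array of AMH 50 ng/mL at 12 h in replicate 3, which was left out of the tests, Sohlh2 had a signal of 154, although the highest of the 6 vehicle arrays was 21.4. Sohlh1 had 101 on that array, against a highest vehicle signal of 28.7. These were the highest values of both probe sets on any of the 18 arrays. On the same array Nobox (6.97), Lhx8 (4.66) and Figla (9.13) stayed near the vehicle array of their pool (5.84, 2.19 and 5.68), and Taf4b 1435303_at had 5.68, against 36.0 with vehicle. The array also stood apart in its correlation with the others and in its hybridisation controls, and their part in these signals was not tested.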

How the results depend on the processing

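Over 39 values of single probe sets and 590 alternatives, 545 kept their sign and their side of the threshold, 41 changed sign and 4 newly passed, and 19 of the 39 values never changed sign. The cause of these changes was not tested. Array weights gave the 4 that passed: Nobox -1.33 (adjusted p = 0.00440) and Lhx8 -1.28 (0.00234) for AMH 50 against vehicle at 24 h, and Nobox 1.53 (0.00932) and Lhx8 1.02 (0.0151) for AMH 200 against AMH 50 at 24 h. The other alternatives gave adjusted p of 0.408 to 0.999998 and 0.428 to 0.999998 for the last pair. Counts of passing probe sets, 0 for the AMH comparisons, became 1025 (AMH 50 against vehicle), 8 (AMH 200 against vehicle) and 513 (AMH 200 against AMH 50) with array weights at 24 h, and 1 for AMH 50 against vehicle from 24 h arrays only. Leaving out pools in turn gave 0 to 4 (AMH 50 against vehicle), 0 to 225 (AMH 200 against vehicle) and 0 to 17 (AMH 200 against AMH 50) at 12 h, 0 to 2 for the mean of both times at AMH 200 and 0 to 3 for the AMH 50 effect at 24 h minus 12 h, each highest without replicate 2 of 12 h. For vehicle 24 h against 12 h the count of 246 became 144 with a pseudocount of 1, 60 with no filter, 65 with the filter at the 75th percentile (fewer probe sets tested), 676 from 17 arrays by group, and 0 to 461 without single vehicle arrays.

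Without the replicate block, AMH 50 against vehicle at 12 h was 0.076 for Nobox and 0.15 for Lhx8, since the AMH 50 group then lacks the dim pool that the vehicle group holds. AMH 200 against AMH 50 at 12 h became -0.19 (Nobox), -0.016 (Lhx8) and -0.22 (Taf4b 1431193_at), and the AMH 50 effect at 24 h minus 12 h was -1.01 for Nobox. These are changes of sign, and no member passed with or without the block. For AMH 50 against vehicle at 24 h, the SE of Nobox was 0.31 with the block and 1.06 without it. That of Lhx8 was 0.25 with the block and 0.88 without it. With all 18 arrays, Taf4b 1435303_at was -0.32 (AMH 50 against vehicle, 12 h), Taf4b 1431193_at -0.029 (AMH 200 against AMH 50, 12 h) and the Nobox effect at 24 h minus 12 h with AMH 50 was -0.23. Array weights gave -0.029 for Taf4b 1435302_at (AMH 200 against vehicle, 24 h), 0.13 and 0.12 for Nobox and Taf4b 1431193_at (AMH 200 against vehicle, 12 h), and -0.20 for the Nobox AMH 50 effect at 24 h minus 12 h. Quantile normalization gave -0.0051 (Taf4b 1435302_at, AMH 200, 24 h) and 0.11 (AMH 50, 12 h), and median centring 0.13 for Taf4b 1435302_at (AMH 50, 12 h) and -0.040 for Taf4b 1431193_at (AMH 200 against AMH 50, 24 h). With a pseudocount of 1, Lhx8 was -0.14 (AMH 200, 12 h) and Nobox 0.16 (vehicle 24 h against 12 h), and with 50 the Lhx8 AMH 50 effect at 24 h minus 12 h was 0.040. Nobox and Lhx8 did not pass the filter at the 75th percentile and have no value there.

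Leaving out 1 pool at a time turned the sign of 15 values. For AMH 200 against vehicle at 24 h the ranges were -0.16 to 0.18 for Nobox, -0.37 to 0.029 for Lhx8 (both turned without replicate 1) and -0.048 to 0.069 for Taf4b 1435302_at. At 12 h they were -0.053 to 0.27 for Lhx8 and -0.52 to 0.25 for Taf4b 1431193_at. For AMH 50 against vehicle at 12 h they were -0.093 to 0.099 for Taf4b 1435302_at and -0.31 to 0.21 for 1435303_at. For AMH 200 against AMH 50, Taf4b 1431193_at ranged over -0.064 to 0.29 at 24 h and -0.100 to 0.40 at 12 h, and 1435303_at over -0.12 to 0.42 at 12 h. For the 24 h effect minus the 12 h effect, Nobox ranged over -0.30 to 0.62 and Lhx8 over -0.31 to 0.30 with AMH 50, and Nobox over -0.044 to 0.39 with AMH 200. For vehicle 24 h against 12 h, without single arrays, Nobox ranged over -1.29 to 0.68 and Lhx8 over -0.59 to 1.00.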
